A study of Mus musculus with 10 samples.

Results

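Endothelial marker genes are genes whose RNA in a solid organ comes mainly from the cells that line its blood vessels. The set described here holds 10 of the 24062 genes counted in each library, chosen by symbol: the receptors Kdr, Flt1, Tek, Tie1 and Eng, the adhesion molecules Cdh5 and Pecam1, the surface sialomucin Emcn, the fenestral diaphragm protein Plvap, and the clotting factor Vwf. Whole pancreas was compared between 5 WT and 5 KSR23 mice at postnatal day 5 (P5), with 1 library per mouse, on the C57BL/6 background. KSR23 mice carry R23, a cassette for the IL-23 subunits p19 and p40 in the ROSA26 locus behind a floxed STOP signal, together with Cre recombinase driven by the human keratin 14 promoter, which is active in keratinocytes. WT mice are the littermate controls, and the labels do not say whether any of them carried 1 of the alleles alone. The comparison asks, as a check of vascular RNA, whether the pancreas of KSR23 mice held the same share of endothelial transcripts as that of WT mice.

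Endothelial cells of the pancreas form a dense capillary bed around acini and islets, and the islet capillaries in particular are fenestrated. Their survival and growth depend on vascular endothelial growth factor (VEGF), which acts through the tyrosine kinase receptors KDR and FLT1, and on angiopoietins, which act through TEK with TIE1 as its partner. VE-cadherin, the product of Cdh5, holds neighbouring endothelial cells together at adherens junctions.

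All 10 genes had enough reads to be tested, and their RNA did not move as a block. In KSR23 mice Kdr, Flt1, Tie1 and Plvap were higher by between 1.23-fold and 1.26-fold, Cdh5 and Tek were lower, at 0.722 and 0.829 of the WT mean, and Pecam1, Eng, Emcn and Vwf did not pass the test. The 4 genes called higher and 2 called lower compare with 16.2% and 14.8% of the 13882 genes tested, or 31.0% in either direction (edgeR's quasi-likelihood test, Benjamini-Hochberg adjusted p under 0.05). The median log2 fold change (log2 FC) of the 10 genes was 0.15, against -0.01 over all genes tested, and it was 0.03 without KSR23 replicate 4 and 0.24 with no correction beyond library size. Values are CPM, the counts of a gene scaled to a library total of 1000000 after correction by the trimmed mean of M values (TMM), errors are SD over 5 mice, and values of a group are listed in the order of the replicate numbers. In bulk tissue, fewer endothelial cells and less RNA per cell cannot be told apart.

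Total gene counts ranged from 26830235 to 33189132 per WT library and from 16715976 to 57784136 per KSR23 library, KSR23 replicate 3 being the shallowest. The lowest count of any endothelial marker gene in any library was 230 (Vwf in KSR23 replicate 3), so depth did not limit detection of any of the 10. Acinar markers identified the tissue as pancreas, with summed CPM of 121110 to 135635 in WT and 98567 to 118924 in KSR23 mice. Il23a, the gene for p19, had 1 to 9 counts per WT library and 21 to 48 per KSR23 library, and its mean was 0.179 ± 0.102 CPM against 1.07 ± 0.138 CPM with no overlap. Il12b, the gene for p40, had 0 to 7 counts against 3 to 13, which overlapped.

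The sequences in front of Kdr, Flt1, Tek and Tie1 are shown as description only, and any link between them and the calls was not tested. Promoter sequences were given by RefSeq (GRCm38.p6) for 6 of the 10 genes. Those of Kdr, Flt1, Tek and Tie1 are printed here from 250 bases before the start, 5′ to 3′ on the strand of the gene, up to the first annotated exon, and those of Eng and Emcn were searched for motifs only. Capitals mark AGGAAG or its reverse complement CTTCCT, a motif with the GGAA core that ETS transcription factors bind.
Kdr (chr5:75978459-75978705, minus strand): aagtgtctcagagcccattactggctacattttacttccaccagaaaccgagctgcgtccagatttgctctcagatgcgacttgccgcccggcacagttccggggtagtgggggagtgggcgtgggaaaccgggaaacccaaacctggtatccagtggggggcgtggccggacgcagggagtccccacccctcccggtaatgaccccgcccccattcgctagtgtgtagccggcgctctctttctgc
Flt1 (chr5:147726012-147726261, minus strand): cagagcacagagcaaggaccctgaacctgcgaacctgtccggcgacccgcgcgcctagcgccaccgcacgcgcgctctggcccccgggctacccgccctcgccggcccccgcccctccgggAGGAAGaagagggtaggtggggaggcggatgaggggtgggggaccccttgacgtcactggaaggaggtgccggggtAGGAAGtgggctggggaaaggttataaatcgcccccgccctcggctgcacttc
Tek (chr4:94739039-94739288, plus strand): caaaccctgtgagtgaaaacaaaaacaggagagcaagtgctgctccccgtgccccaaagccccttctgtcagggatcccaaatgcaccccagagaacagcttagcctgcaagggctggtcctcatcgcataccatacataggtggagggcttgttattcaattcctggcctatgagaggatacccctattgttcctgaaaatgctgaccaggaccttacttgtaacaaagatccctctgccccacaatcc
Tie1 (chr4:118490062-118490099, minus strand): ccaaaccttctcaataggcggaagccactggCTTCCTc
In the full windows AGGAAG was found, on either strand, 129 and 53 bases before the RefSeq start of Flt1 and 219 bases before that of Tie1, and it was not found in the windows of Kdr and Tek. Eng held it at 52 and 6 bases and Emcn at 174 and 93 bases. In the Tie1 window 212 of the 250 bases lie in annotated exons, because the annotation used for gene positions starts Tie1 further upstream, at 118490061. The Tie1 match lies just before that start, in the printed part. Of 32851 promoter windows of this length, 29.5% held the motif. TATAAA, the TATA box, was found only in Flt1 among the 6 genes, 31 bases before the start, clear of the other matches, and in 12.4% of all windows. The GATA factor motif AGATAA was in none of the 6 windows and in 9.99% of all windows, and the E-box motif CAGGTG likewise in none of the 6 and in 17.2% of all. Kdr and Tek both had no match to any of these motifs. Only exact matches were searched: the GGAA core alone, as its reverse complement TTCC, occurs unmarked in the printed sequences of both. The search therefore does not show whether these windows hold sites for ETS factors. Pecam1, Cdh5, Vwf and Plvap are named only.

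Kdr, on chromosome 5 (75932827 to 75978458, minus strand, GRCm38), encodes VEGF receptor 2, the main signalling receptor for VEGF-A. Its level was 32.4, 30.2, 36, 35 and 38.1 CPM in WT mice and 45.7, 37.5, 40.3, 41.6 and 46.8 CPM in KSR23 mice. WT replicate 5 lay above KSR23 replicate 2, and the other 4 WT mice lay below all KSR23 mice. Means were 34.3 ± 3.11 and 42.4 ± 3.84 CPM, a log2 FC of 0.31 (95% CI 0.13 to 0.48, edgeR quasi-likelihood adjusted p = 0.00873). Flt1, also on chromosome 5 (147561604 to 147726011, minus strand), encodes VEGF receptor 1, which binds VEGF-A, VEGF-B and placental growth factor and also exists as a soluble decoy form. It was read at 10.8, 10.5, 9.59, 10.8 and 9.17 CPM in WT mice and at 10.9, 11.6, 13.4, 14.2 and 12.5 CPM in KSR23 mice. The groups did not overlap, but KSR23 replicate 1 lay only just above the highest WT mice. Flt1 had a log2 FC of 0.30 (95% CI 0.08 to 0.51, edgeR quasi-likelihood adjusted p = 0.0352). This call depended on single mice and settings: the adjusted p was 0.0501, 0.0839 and 0.0877 without WT replicates 2, 3 and 5, and 0.0695, 0.0981 and 0.0575 without KSR23 replicates 3, 4 and 5. It was 0.0547 with no filter on low counts. The ratio of Kdr to Flt1 within a mouse ranged from 2.87 to 4.16 in WT and from 2.94 to 4.21 in KSR23 mice, so the groups covered nearly the same range.

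The TIE receptors were called in opposite directions. Tie1, on chromosome 4 (118471191 to 118490061, minus strand), encodes an orphan receptor that pairs with TEK at the cell surface. Its CPM were 19.6, 22.4, 20.4, 21.8 and 21.5 in WT mice and 28.2, 26.6, 23.4, 30.3 and 24.3 in KSR23 mice. Every KSR23 mouse lay above every WT mouse, and the log2 FC was 0.33 (95% CI 0.16 to 0.51, edgeR quasi-likelihood adjusted p = 0.00583). Tek, on the same chromosome (94739289 to 94874976, plus strand), encodes TIE2, the receptor that angiopoietins bind. It was measured at 18.1, 21.7, 21, 19.9 and 21.5 CPM in WT mice and at 17.1, 19.1, 13.4, 19 and 16 CPM in KSR23 mice. WT replicate 1 lay among the higher KSR23 mice, and KSR23 replicate 3, the shallowest library, was the lowest of all. The log2 FC of Tek was -0.27 (95% CI -0.47 to -0.06, edgeR quasi-likelihood adjusted p = 0.0488), next to the threshold. Without WT replicates 2, 3, 4 and 5 the adjusted p was 0.105, 0.0865, 0.0676 and 0.0826, and without KSR23 replicates 1, 3 and 5 it was 0.0662, 0.113 and 0.101. With no correction beyond library size, the log2 FC of Tek was -0.18 (adjusted p = 0.22), and with no filter on low counts the adjusted p was 0.054.

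Eng, on chromosome 2 (32646595 to 32682669, plus strand), encodes endoglin, a co-receptor for BMP9 and related ligands of the transforming growth factor-β family. Its values of 53.5, 57.2, 61.5, 53.4 and 62.7 CPM in WT mice covered those of 62.3, 64, 62.4, 61.9 and 60 CPM in KSR23 mice except at the top. The log2 FC was 0.11 (95% CI -0.03 to 0.25, edgeR quasi-likelihood adjusted p = 0.229). In a two-sided exact permutation test on CPM, p was 0.0873, and 0.0238 with no correction beyond library size. Of its exon bases, 61 are shared with Fpgs on the opposite strand.

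The junction and surface molecules diverged as well. Cdh5, on chromosome 8 (104101625 to 104144511, plus strand), had 23.5, 25.1, 23.7, 24.9 and 23.1 CPM in WT mice and 15.8, 19.3, 16.3, 18.1 and 17.4 CPM in KSR23 mice. All KSR23 mice lay below all WT mice, with a gap between the groups wider than the whole range within WT mice. Means were 24.1 ± 0.894 CPM in WT and 17.4 ± 1.44 CPM in KSR23 mice, and Cdh5 fell with a log2 FC of -0.47 (95% CI -0.63 to -0.30, edgeR quasi-likelihood adjusted p = 0.000218, two-sided exact permutation p = 0.00794, the smallest that 5 mice against 5 can give). Pecam1, on chromosome 11 (106654217 to 106750628, minus strand), encodes CD31, an adhesion molecule of endothelial cells that leukocytes and platelets also carry. It was at 66.9, 68.2, 71.1, 65.6 and 74.5 CPM in WT mice and at 67.3, 66.3, 66.5, 71.5 and 65.2 CPM in KSR23 mice. The groups overlapped almost fully, and the log2 FC was -0.04 (95% CI -0.17 to 0.09, edgeR quasi-likelihood adjusted p = 0.669), turning to 0.05 with no correction beyond library size. Emcn, on chromosome 3 (137341067 to 137432185, plus strand), encodes endomucin, which marks capillaries and veins more than arteries. It read 17.9, 21.7, 19, 18 and 17.7 CPM in WT mice against 17.3, 19.6, 17.8, 20.6 and 18.3 CPM in KSR23 mice, with no separation. Its log2 FC was -0.01 (95% CI -0.19 to 0.17, edgeR quasi-likelihood adjusted p = 0.949), and 0.08 with no correction beyond library size. For Pecam1 and Emcn the intervals exclude a fall as large as the estimate for Cdh5.

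**Figure D1:**
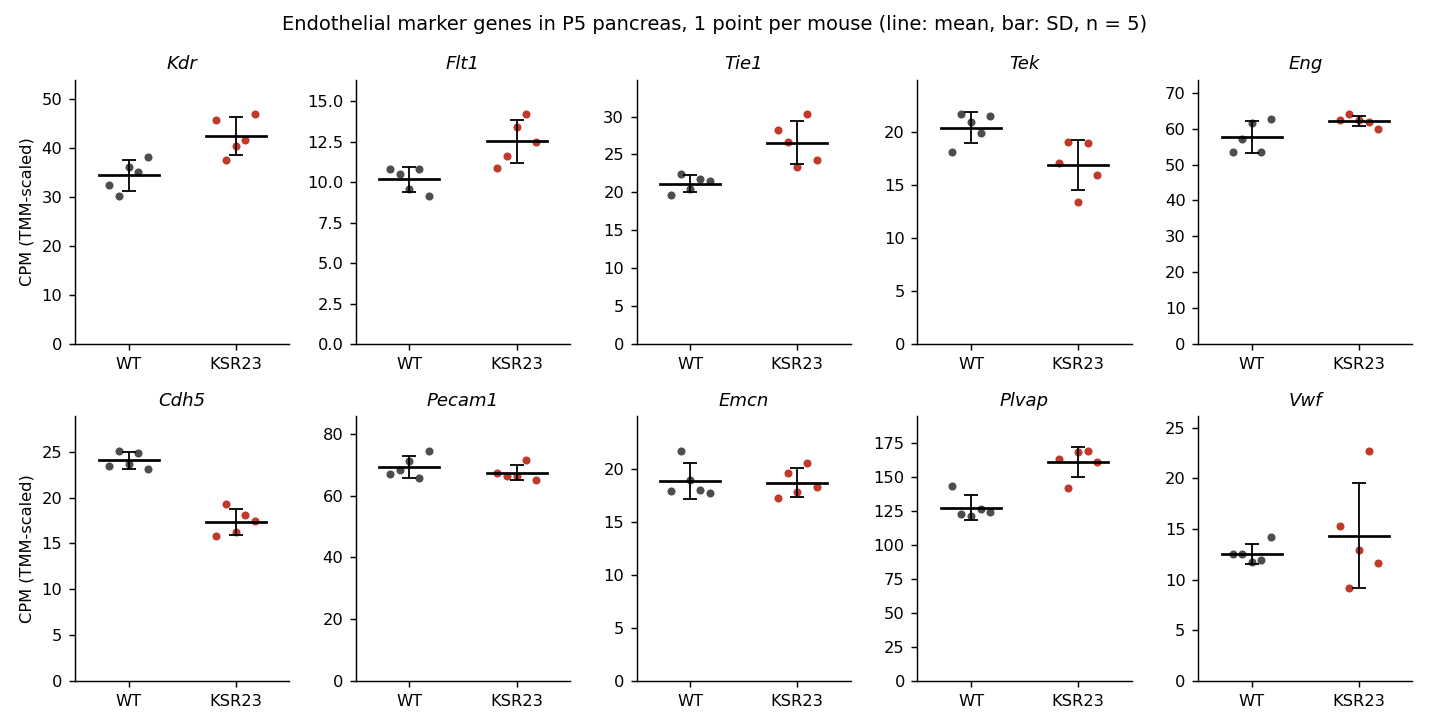
CPM (TMM-scaled library sizes, linear axis from 0) of the 10 endothelial marker genes in each of 5 WT and 5 KSR23 mice, with the mean and SD of each group. Cdh5 is lower in all KSR23 mice (15.8 to 19.3 against 23.1 to 25.1 CPM), Tie1 is higher in all of them (23.4 to 30.3 against 19.6 to 22.4 CPM), and Vwf is widely spread in KSR23 mice (9.13 to 22.7 CPM).

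Plvap, on chromosome 8 (71497765 to 71511752, minus strand), encodes the protein of the diaphragms that span fenestrae and caveolae. It had 143, 123, 121, 126 and 124 CPM in WT mice and 163, 142, 168, 169 and 161 CPM in KSR23 mice. Only WT replicate 1 and KSR23 replicate 2 met, at 143 and 142 CPM, and the other 4 mice of each group were well apart. Plvap rose from a mean of 128 ± 8.93 CPM to one of 161 ± 10.9 CPM (log2 FC 0.33, 95% CI 0.19 to 0.47, edgeR quasi-likelihood adjusted p = 0.0012). Vwf, on chromosome 6 (125546774 to 125686679, plus strand), encodes von Willebrand factor, which endothelial cells of larger vessels and megakaryocytes store. It had 12.5, 12.5, 11.7, 11.9 and 14.2 CPM in WT mice and 15.3, 9.13, 12.9, 22.7 and 11.6 CPM in KSR23 mice. Both the highest and the lowest values were KSR23 mice, and the coefficient of variation was 36.3% in KSR23 against 7.9% in WT mice. The log2 FC of Vwf was 0.19 (95% CI -0.18 to 0.56, edgeR quasi-likelihood adjusted p = 0.436) and changed sign to -0.04 (adjusted p = 0.845) without KSR23 replicate 4.

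**Figure D2:**
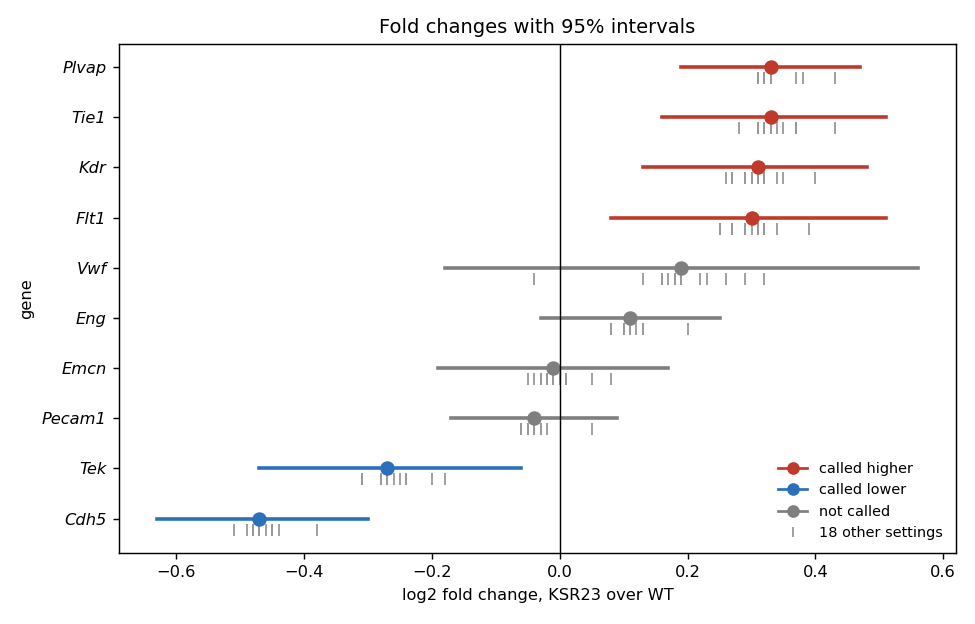
Log2 FC of KSR23 over WT for each endothelial marker gene, with its 95% interval (coloured by call) and, as grey ticks, the estimates under 18 other settings. The ticks of Kdr, Tie1, Plvap and Cdh5 stay on 1 side of 0, as do those of Flt1 and Tek, while those of Pecam1, Emcn and Vwf fall on both sides.

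Of the 6 calls, those of Cdh5, Kdr, Tie1 and Plvap held in all 18 alternative settings and those of Flt1 and Tek did not. Groups did not overlap in CPM for Flt1 and Tie1, both higher, and for Cdh5, which was lower, against 10.7% and 8.74% of all genes tested, or 19.4% in either direction. Mouse by mouse, the summed CPM of the 10 genes was 387 to 407 in WT and 415 to 469 in KSR23 mice, and without Plvap, the most abundant of them, it was 255 to 283 and 266 to 300, which overlapped. KSR23 replicate 4 had 9 of the 10 genes above their mean over the 10 mice, and the other mice had between 2 and 6.

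Dividing by another endothelial gene of the same library removes library scaling from the comparison. These ratios describe the same counts and carry no test. The ratio of Tie1 to Tek was 1.09, 1.03, 0.972, 1.10 and 0.998 in WT mice and 1.65, 1.39, 1.75, 1.60 and 1.52 in KSR23 mice. The lowest KSR23 ratio was therefore above the highest WT ratio, and the means were 1.04 ± 0.0539 and 1.58 ± 0.134. Relative to Pecam1, the ratio of Cdh5 was 0.31 to 0.379 in WT and 0.234 to 0.292 in KSR23 mice, without overlap. Kdr relative to Pecam1 was 0.442 to 0.534 against 0.566 to 0.717, and Tie1 was 0.288 to 0.332 against 0.352 to 0.424, again without overlap. Plvap and Eng were higher relative to Pecam1 by a bare margin at the edges (2.14 in the highest WT and the lowest KSR23 mouse for Plvap, 0.865 and 0.866 for Eng). Flt1, Tek, Emcn and Vwf overlapped. Relative to Cdh5, 7 of the other 9 genes separated the groups, with all KSR23 ratios above all WT ratios. Cdh5 itself was lower in every KSR23 mouse, which raises any ratio to it. The 7 include Pecam1 and Emcn, whose own CPM overlapped between groups, so this is not a count of genes that rose.

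**Figure D3:**
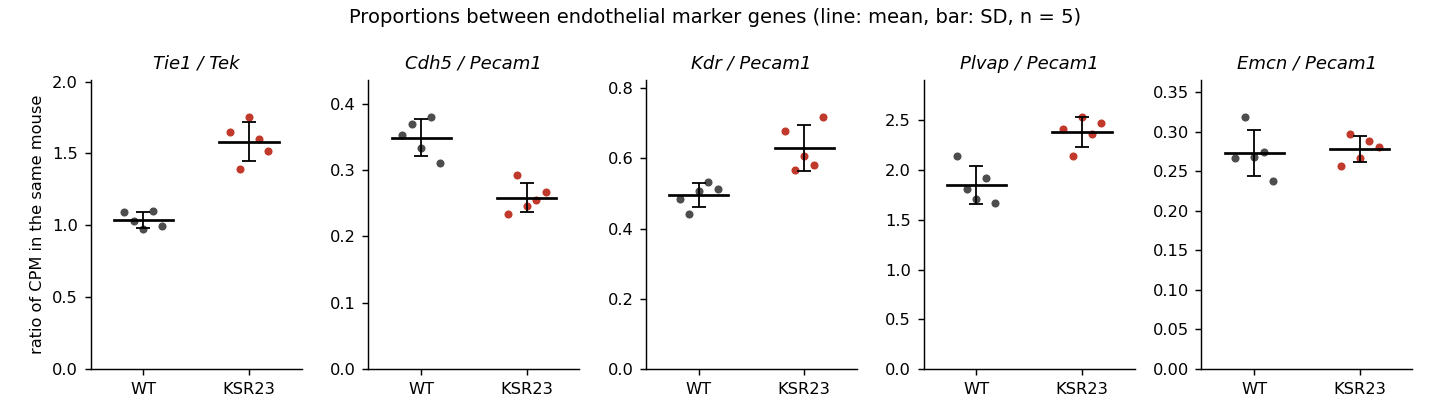
Ratios between endothelial marker genes within each mouse (linear axes from 0), with the mean and SD of each group. The ratio of Tie1 to Tek is 0.972 to 1.10 in WT and 1.39 to 1.75 in KSR23 mice, that of Cdh5 to Pecam1 is lower in KSR23 mice, and that of Emcn to Pecam1 overlaps.

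Levels of different genes were compared per kilobase of the longest coding transcript. In WT mice Plvap was first with 64.2 ± 4.49 CPM per kilobase, followed by Pecam1 (20.1 ± 1.03) and Eng (16.8 ± 1.27). Emcn (7.29 ± 0.646), Cdh5 (6.02 ± 0.224), Kdr (5.79 ± 0.525), Tie1 (4.99 ± 0.263) and Tek (4.39 ± 0.324) came next, and Flt1 (1.48 ± 0.109) and Vwf (1.42 ± 0.112) were last. From Cdh5 down to Tek, and for Flt1 and Vwf, the ranges of neighbours in this order overlapped. In KSR23 mice Cdh5 (4.35 ± 0.36) moved from the fifth to the seventh place, below Kdr (7.15 ± 0.649) and Tie1 (6.28 ± 0.662). The order depends on the length used: with merged exons Emcn took the eighth place in place of the fourth, and reads of oligo-dT primed libraries need not cover long transcripts evenly.

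Ligands and partners of these receptors were read from a list of 24 genes of the VEGF, angiopoietin and endoglin pathway, of which 21 were tested, 5 were called higher and 4 lower, with a median log2 FC of 0.05. For this list and those below, the shares over all genes tested are again 16.2% called higher and 14.8% called lower. Angpt1, the ligand that activates TEK, was 11, 13.8, 12, 12.8 and 10.7 CPM in WT mice and 6.17, 7.05, 4.7, 6.27 and 7.47 CPM in KSR23 mice. Every KSR23 mouse was lower, and the log2 FC was -0.91 (SE 0.125, edgeR quasi-likelihood adjusted p = 2.14e-05). Angpt2, the context-dependent antagonist of TEK, had a log2 FC of -0.23 (adjusted p = 0.32). Among the VEGF genes, Vegfa had a log2 FC of 0.17 (adjusted p = 0.139), Vegfb fell to 0.6 of its WT mean (log2 FC -0.73, adjusted p = 2.63e-05), Vegfd fell with a log2 FC of -0.60 (adjusted p = 0.0118), and Pgf, placental growth factor, rose 1.55-fold (log2 FC 0.63, adjusted p = 0.0075). The called ligands of FLT1 went in opposite directions. Nrp1, the co-receptor neuropilin 1, was 86.8 to 95.6 CPM in WT and 117 to 142 CPM in KSR23 mice (log2 FC 0.54, adjusted p = 8.95e-06). Downstream of endoglin and its kinase ALK1, Id1 and Smad1 were higher (log2 FC 0.40 and 0.28, adjusted p = 0.0109 and 0.0114) and Smad5 was lower (log2 FC -0.32, adjusted p = 0.0207). In the same list Id3, Smad6 and Smad7 were not called (log2 FC 0.05, -0.26 and -0.01, adjusted p = 0.724, 0.113 and 0.976). Gdf2, the gene for BMP9, and Bmp10 had 0 to 3 counts in each library. Which cells of the bulk tissue the Id and Smad values come from was not tested. The Smad5 call was lost without WT replicate 2 and with no correction beyond library size. Acvrl1, the gene for ALK1, had an adjusted p of 0.0492 that lay above the threshold in 12 of 18 settings (up to 0.153).

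**Figure D4:**
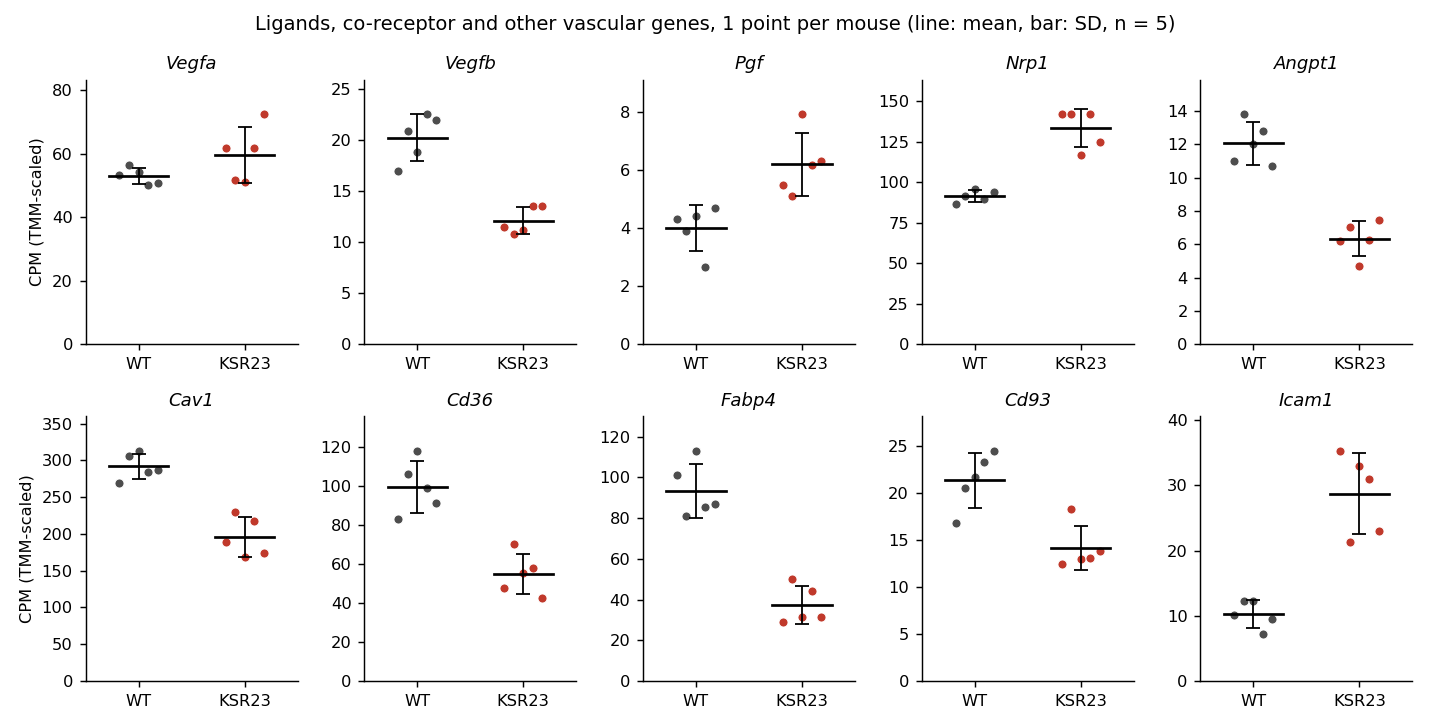
CPM (TMM-scaled library sizes, linear axis from 0) of ligands, a co-receptor and other vascular genes in each mouse, with the mean and SD of 5 WT and 5 KSR23 mice. Angpt1 (10.7 to 13.8 against 4.7 to 7.47 CPM), Vegfb, Cav1, Cd36 and Fabp4 are lower and Pgf, Nrp1 and Icam1 higher in KSR23 mice without overlap, and Vegfa overlaps.

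Of 8 genes of caveolae and capillary lipid handling, 6 were called lower and 0 higher, with all 8 log2 FC below 0 and a median of -0.45. Fabp4, a fatty acid carrier of capillary endothelium and of adipocytes, was at 81.1 to 113 CPM in WT and 29 to 50 CPM in KSR23 mice (log2 FC -1.33, adjusted p = 6.09e-07). Cd36, a fatty acid transporter that macrophages and adipocytes also carry, fell by 0.86 on the log2 scale (adjusted p = 1.62e-05). Cav1 and Cavin2, which build caveolae, had log2 FC of -0.58 and -0.48 (adjusted p = 4.03e-05 and 8.09e-05). Cav2 and Ehd2 were also called lower, and these calls were lost in 7 and 9 of 18 settings (adjusted p up to 0.119 and 0.141), mostly where 1 mouse was left out. Cavin1 and Lpl did not pass (log2 FC -0.04 and -0.06), and both turned positive with no correction beyond library size. Plvap, the gene for the diaphragm protein of fenestrae and caveolae, is not in this list and was higher in the same mice. Fabp4 and Cd36 are not specific to endothelium. A list of 8 adipocyte markers was added after the data were examined. Its summed level was 6.23 to 30.3 CPM in WT and 4.08 to 16 CPM in KSR23 mice. The part of adipocytes in the values of the 8 caveolar and lipid genes, Fabp4 and Cd36 among them, was not tested. Adipoq, the adipocyte hormone adiponectin, had 151, 176, 250, 27 and 73 counts in WT and 11, 116, 0, 31 and 0 counts in KSR23 libraries. Mean Adipoq was 4.74 ± 3.06 CPM in WT and 0.897 ± 1.45 CPM in KSR23 mice, and the groups overlapped. Any link between Adipoq and the Fabp4 or Cd36 values was not tested. The filter of 5 counts in every library left 1 of the 8 adipocyte markers to test, which was not called, but 2 were called lower with edgeR's filterByExpr and 5 with no filter on low counts.

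A wider list of 30 endothelial genes had 1 called higher, 9 lower and 20 not called, with a median log2 FC of -0.10. Its summed level was 611 to 686 CPM in WT and 542 to 609 CPM in KSR23 mice. Cd34, the most abundant gene of the list, made up 158 to 183 CPM of this sum in WT and 117 to 144 CPM in KSR23 mice. The sums therefore follow Cd34 more than the other genes. Apln, the ligand apelin of endothelial tip cells, and Cd93, an endothelial adhesion protein, had log2 FC of -0.77 and -0.59 (adjusted p = 0.00238 and 0.000939). Cd34 and Clec14a, both surface proteins, had log2 FC of -0.31 (adjusted p = 0.00235 and 0.00929), and their groups did not overlap, but both calls were lost with no correction beyond library size. Myct1, Calcrl and Sox7 had log2 FC of -0.45, -0.43 and -0.35, with calls lost in 7, 3 and 8 of 18 settings (adjusted p up to 0.083, 0.111 and 0.119), mostly where 1 mouse was left out. Aplnr, the apelin receptor, and Ramp2, a partner of Calcrl, both had log2 FC of -0.24 (adjusted p = 0.0237 and 0.0368), with calls lost in 5 and 10 of 18 settings (adjusted p up to 0.167 and 0.223). Egfl7 was the gene called higher (log2 FC 0.22, adjusted p = 0.041), and that call was lost in 10 of 18 settings (adjusted p up to 0.134), among them each that left out 1 WT mouse. With no correction beyond library size, 2 genes of the list were called higher and 2 lower, and 5 were called lower without WT replicate 3 or without KSR23 replicate 5.

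By vessel type, 13 of 14 arterial, venous and lymphatic genes were tested, 2 were called higher and 2 lower (median log2 FC -0.04), and Ccl21a was listed at 0 in all libraries. Over all genes tested, 31.0% were called in either direction, so the list as a whole does not stand out. Ephb4, a receptor of venous endothelium, rose with a log2 FC of 0.38 (adjusted p = 0.00431), while Nr2f2, a transcription factor of veins, fell by 0.33 on the log2 scale (adjusted p = 0.0144). Gja4, a gap junction protein of arteries, had a log2 FC of 0.33 (adjusted p = 0.0372) and lost its call in 8 of 18 settings (adjusted p up to 0.102), and Gja5, likewise arterial, had a log2 FC of 0.13 (adjusted p = 0.632). Lyve1, carried by lymphatic endothelium and by some macrophages, fell by 0.59 on the log2 scale (adjusted p = 0.000322). The Nr2f2 call was lost with no correction beyond library size.

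Of 11 genes of endothelial activation, 9 were tested, and 1 was called in each direction. Icam1, which binds leukocyte integrins and which leukocytes and epithelial cells also make, was 10.1, 12.3, 12.2, 7.16 and 9.46 CPM in WT mice and 35.3, 21.3, 33, 31 and 23 CPM in KSR23 mice. The groups were far apart, with a 2.81-fold higher mean in KSR23 mice (log2 FC 1.49, SE 0.154, adjusted p = 7.55e-07). The activation genes Vcam1 and Selp did not pass (log2 FC 0.19 and 0.57, adjusted p = 0.269 and 0.0518), though Selp passed in 5 of 18 settings (2 of them without KSR23 replicates 3 and 5) and Vcam1 in 1 (without KSR23 replicate 5). Sele, E-selectin, was at 0 to 0.419 CPM in WT and 0.151 to 0.622 CPM in KSR23 mice, too low to test. Madcam1, the addressin of mucosal venules, fell by 0.58 on the log2 scale (adjusted p = 0.000873).

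Markers of other cells moved in the same libraries. Leukocyte markers were called higher in 8 of 12 and lower in 2. Their summed level was 256 to 299 CPM in WT and 280 to 500 CPM in KSR23 mice. The 500 CPM was KSR23 replicate 3, and the other KSR23 mice had 280 to 385 CPM. Ptprc, the pan-leukocyte gene CD45, had a log2 FC of 0.69 (edgeR quasi-likelihood adjusted p = 0.00553). C1qa and Cd3e were the genes called lower, with log2 FC of -0.80 and -1.50 (edgeR quasi-likelihood adjusted p = 4.75e-07 and 5.77e-05), while C1qb rose with a log2 FC of 0.80. Among 8 platelet and megakaryocyte markers, which bear on Vwf and Pecam1, 2 could be tested and the summed level was 32.6 to 44.7 CPM in WT and 15.6 to 28.1 CPM in KSR23 mice. Most of this sum was Pf4, platelet factor 4, which some macrophages also express (mean 34.1 CPM in WT and 19.2 CPM in KSR23 mice). Pf4 fell by 0.83 on the log2 scale (adjusted p = 2.26e-05). Itga2b, the next highest at a mean of 2.24 and 2.16 CPM, had a log2 FC of -0.08 (adjusted p = 0.84). Among 11 mural cell markers 1 was called higher (Pdgfrb, log2 FC 0.35, adjusted p = 0.00596) and 2 lower (Acta2, log2 FC -0.48, adjusted p = 7.2e-05, and Rgs5, log2 FC -0.26, adjusted p = 0.0298, lost in 7 of 18 settings with adjusted p up to 0.158). The part of these cells in the values of the endothelial marker genes was not tested.

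**Figure D5:**
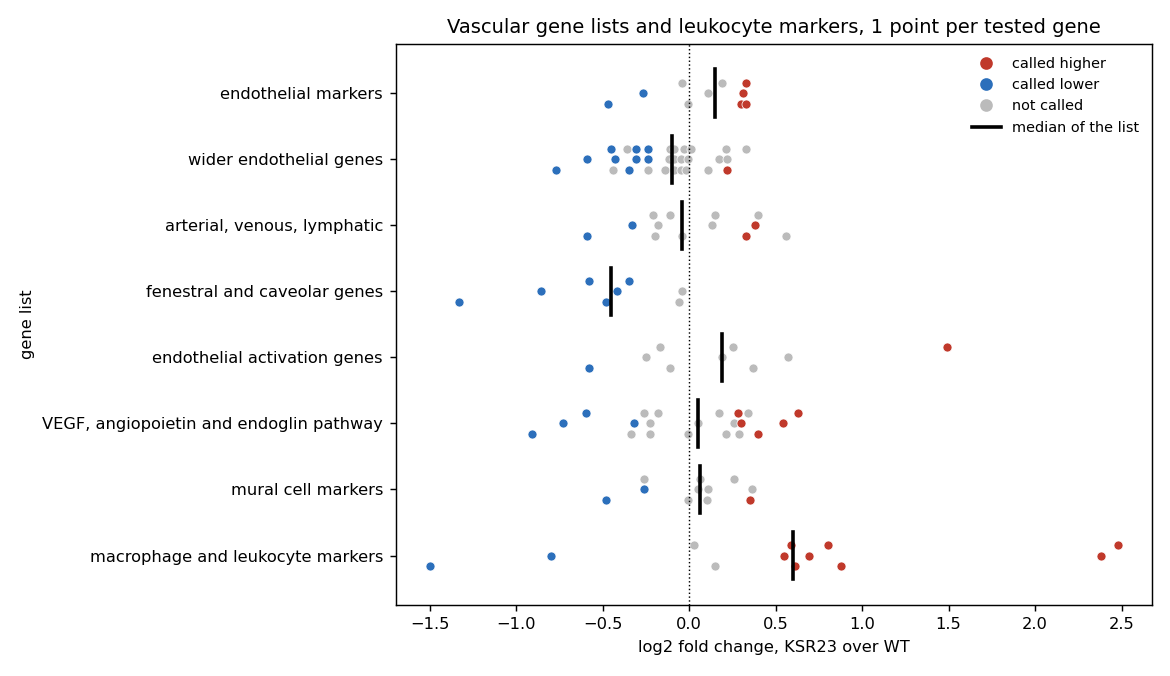
Log2 FC of KSR23 over WT for every tested gene of 7 vascular lists and the leukocyte markers, with 1 point per gene coloured by call and a bar at the median of each list. The endothelial marker genes spread from -0.47 to 0.33 around a median of 0.15, and the leukocyte markers have a median of 0.60. The list labelled fenestral and caveolar genes, which does not include Plvap, has 0 called higher and a median of -0.45.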

How the data were processed

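Whole pancreas RNA (100 pg, oligo-dT primed, SMART-Seq v4) of 10 mice was read by the authors as single-end 75-base reads. Per the paper and the submitters' processing notes, reads were aligned to mm10 with TopHat2 2.1.0, and HTSeq 0.6.1p1 counted unique alignments per gene by strict intersection. The authors deposited the raw counts, with no normalization. The annotation release and strand setting are not given in the sources used here, and 5 tallies of reads given to no gene were kept out.

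Of 24062 genes, the 13882 that reached 5 counts in each of the 10 libraries were tested with edgeR 4.0.16 (TMM, quasi-likelihood test, Benjamini-Hochberg adjustment over all tested genes, R 4.3.3). Single CPM values were compared by two-sided exact permutation over 252 splits. Intervals of log2 FC use the t quantile, and the floor of 3 counts was 0.0536 to 0.168 CPM, which covers counting error only, since PCR copies were not marked. No 2 libraries of a group were copies (lowest chi-square per degree of freedom 11.9).

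Positions come from GENCODE M21 on GRCm38, and all 75-base windows of the longest coding transcript of each of the 10 genes were unique to it. The rule named all 10 genes, called members of every other list (up to 6 each way by size), genes used as checks and the 10 genes of nearest profile. It was followed for the vascular lists, and other lists are given mostly as counts. Clec14a, Aplnr and Ramp2, beyond the 6, and genes named that were not called were chosen after their values were seen. Of 168 list genes, 5 were matched by older symbols. The members and lists were chosen with earlier results of these data known. The 18 alternatives were RLE size factors, library size alone or without the 50 highest genes, the likelihood ratio test of the study, DESeq2 1.42.0, edgeR's filterByExpr, no filter, the replicate block, and leaving out each mouse. Jejunum libraries were not analysed here.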

Additional observations from a re-analysis of the deposited data

Results flagged for a closer look

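In groups of 5 mice, 12 of 128 gene and group combinations had 1 mouse far from the other 4 by Dixon's criterion, where chance gives about 6.4. Among the endothelial marker genes this was Plvap in WT replicate 1, at 143 CPM against 121 to 126 CPM in the other WT mice. Among other vascular genes, Cd93 was 18.3 CPM in KSR23 replicate 2 (others 12.5 to 13.8), Cd34 was 183 CPM in WT replicate 5 (others 158 to 164), and Nr2f2 was 18.3 CPM in WT replicate 1 (others 19.9 to 20.5). KSR23 replicate 5 was the lowest of its group for Cd68 at 15.9 CPM (others 21.2 to 23.4), C1qb at 74.3 CPM (others 95.6 to 103) and Pf4 at 13.3 CPM (others 19.5 to 21.6). KSR23 replicate 3 was the highest for the neutrophil genes S100a8 at 76.4 CPM (others 9.9 to 17.6) and S100a9 at 73.5 CPM (others 7.76 to 16.7). KSR23 replicate 4 was the highest for Ramp2 at 20.7 CPM (others 17.5 to 18.2) and Sele at 0.622 CPM (others 0.151 to 0.207), and KSR23 replicate 2 was the highest for Adipoq at 3.44 CPM (others 0 to 0.772).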

How the results depend on the processing

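The calls of Cdh5, Kdr, Tie1 and Plvap held in all 18 settings. With library size alone, 1 endothelial marker gene was called lower, the median log2 FC of the 10 was 0.24, and Pecam1 and Emcn turned to 0.05 and 0.08 (CPM ratios 1.04 and 1.06). Over all genes, this setting called 3075 higher and 1161 lower, against 2250 and 2049, and moved the median of all genes by 0.092. With no filter on low counts, 1 endothelial marker gene was called lower. Same-numbered mice did not visibly deviate together (correlations -0.111 to 0.0661, and 1 of 5 mice correlated best with its own number). No pairing by number was seen, but such correlations could miss a weak one. With the replicate block, 3 endothelial marker genes were called higher and 1 lower, the adjusted p of Flt1 being 0.0678 and that of Tek 0.0644. Leaving out 1 mouse gave 3 to 4 endothelial marker genes called higher and 1 to 2 lower, medians of 0.03 (without KSR23 replicate 4) to 0.21 (without KSR23 replicate 2), and 1846 to 2210 genes called higher and 1651 to 1973 lower over all genes. Emcn lay between -0.05 and 0.05 when 1 mouse was left out, turning positive (0.05, 0.01 and 0.01) without WT replicate 2 and without KSR23 replicates 1 and 3, and Vwf, between -0.04 and 0.32, was negative without KSR23 replicate 4. The cause of these shifts was not tested.

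The labels do not name litters, and 5 mice a group set the precision of changes of this size, with the widest 95% interval for Vwf (-0.18 to 0.56). Counts were not corrected for PCR copies.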

Other observations

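The profile over the 10 mice nearest to the mean of the endothelial marker genes (log2 CPM centred and scaled per gene, root mean square difference) was that of Flna, a filamin, at 0.364, followed by Col5a2 at 0.371, Ric8 at 0.391, Il6st at 0.417, Crat at 0.43, Hdac7 at 0.431, Col27a1 at 0.451, Lphn2 at 0.472, Ctsf at 0.476 and Ttc38 at 0.479. Of the 10 endothelial marker genes, the nearest to their own mean was Tie1, at rank 78 of 13882 genes, and the farthest was Cdh5, at rank 11277.

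Outside the vessels, duct markers were called higher in 5 of 6 (median log2 FC 0.75, summed level 931 to 1044 CPM in WT and 1541 to 1702 CPM in KSR23 mice). Acinar markers were called lower in 4 of 6 and higher in 1, and islet markers lower in 5 of 6 and higher in 1 (7640 to 10794 CPM against 4711 to 5887 CPM). Stromal markers had 1 of 6 called lower. Of 8 erythroid markers 4 were tested and 0 were called in edgeR's quasi-likelihood test (0 at an unadjusted p under 0.05, and 0 in DESeq2), while without KSR23 replicate 3 all 4 were called lower. The globin genes Hba-a1, Hba-a2, Hbb-bs and Hbb-bt were listed at 0.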
